A study of Mus musculus with 4 samples.

Results

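The genes described here are the chemokine receptor gene Ccr2, the genes of 4 monocyte-attracting CC chemokines (Ccl2, Ccl7, Ccl8 and Ccl12) and Ly6c2, which encodes a surface protein of classical monocytes. They were taken by gene symbol and make up 6 of the 24346 genes listed for each library. RNA sequencing was performed on whole liver of male C57BL/6 mice (the sex is from the methods), and no allele or transgene was named for any animal. All mice ate a NASH diet, rich in fat, cholesterol and sucrose with bile salt, for 3 weeks. The control group (n = 2 libraries) ate this diet alone, and the diet of the 7KC group (n = 2 libraries) also held 7-ketocholesterol (7KC), an oxidised form of cholesterol. The control mice were thus on a steatohepatitis diet themselves, and no library from a standard diet was analysed here. The age of the mice and the dose of 7KC are in the methods of the study and not in the labels, and are not given here. Nothing said whether a library came from 1 mouse or several, so the p-values measure only the spread between these libraries. The comparison asked whether adding 7KC to the NASH diet changed inflammatory gene expression in the liver.

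CCR2 is the receptor that lets classical monocytes leave the bone marrow and follow a gradient of ligand into inflamed tissue. Its ligands are small secreted proteins of the CC family, named for a pair of neighbouring cysteines near the start of the mature protein. In mice CCL2, CCL7 and CCL12 act through CCR2, while CCL8 is known in mice mainly as a ligand of another receptor, CCR8. In steatohepatitis, monocytes that enter the liver through CCR2 become macrophages beside the resident Kupffer cells, and mouse monocytes of this kind carry much LY6C on their surface.

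The 4 ligand genes lie in 1 cluster on the plus strand of chromosome 11 (mm10 coordinates, annotation of GENCODE release M21). Ccl2 spans 82035571 to 82037453, Ccl7 82045712 to 82047525, Ccl12 82101845 to 82103400 and Ccl8 82115185 to 82116799, each with 3 exons in its coding transcript. The cluster covers 81.2 kb and holds 1 further coding gene, the eosinophil chemokine gene Ccl11, between Ccl7 and Ccl12. Ccr2 lies on chromosome 9, 124101950 to 124113557, plus strand, in a cluster of 5 receptor genes that spans 185.6 kb. Ly6c2 lies on chromosome 15, 75108158 to 75111970, minus strand, 59.3 kb from its close copy Ly6c1. Ccl2 overlaps Gm17268, a gene model on the minus strand that has no row in the files.

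The coding sequences of the ligands were compared first, because near copies can exchange reads. The stretches below, taken from GENCODE release M21, show the codons of the cysteine pair in capitals with 30 bases on either side.
Ccl2: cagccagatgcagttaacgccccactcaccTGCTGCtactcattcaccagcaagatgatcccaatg
Ccl7: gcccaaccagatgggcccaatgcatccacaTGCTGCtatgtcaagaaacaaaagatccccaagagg
Ccl8: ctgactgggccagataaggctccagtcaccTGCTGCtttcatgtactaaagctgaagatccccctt
Ccl12: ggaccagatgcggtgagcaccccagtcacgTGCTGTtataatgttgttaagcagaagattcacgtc
They are coding bases 70 to 135 of Ccl2, 67 to 132 of Ccl7, 64 to 129 of Ccl8 and 67 to 132 of Ccl12. Around the shared cysteine codons the letters differed between all 4 genes. Over the aligned coding sequence the pairs of ligand genes were 65.5% (Ccl7 and Ccl8) to 73.3% (Ccl2 and Ccl8) identical. None of the 75-base windows of the ligand transcripts, the length of a read, occurred in a transcript of another gene, so an exact read could be placed in only 1 of them.

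Ly6c2 was the member with a near copy. The first 180 coding bases of Ly6c2 and of Ly6c1 are shown with the 6 bases that differ in capitals.
Ly6c2: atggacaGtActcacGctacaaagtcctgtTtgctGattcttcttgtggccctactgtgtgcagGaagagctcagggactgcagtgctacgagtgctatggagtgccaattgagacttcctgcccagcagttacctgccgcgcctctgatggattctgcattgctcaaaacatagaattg
Ly6c1: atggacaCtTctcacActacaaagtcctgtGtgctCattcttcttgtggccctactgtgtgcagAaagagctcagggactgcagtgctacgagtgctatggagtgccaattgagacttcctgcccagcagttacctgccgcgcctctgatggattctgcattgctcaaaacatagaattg
Of the 75-base windows of the Ly6c2 transcripts, 20.7% also occurred in Ly6c1, and the longest identical stretch ran over 188 bases. For Ccr2 the shared part was 1.16% of its windows. The setting used for reads with several matches was not given in the sources used here, so the level of Ly6c2 can hold reads of Ly6c1 and the reverse.

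Promoter sequence was available for Ccl8, Ccl12, Ccr2 and Ly6c2 in the RefSeq table (GRCm38.p6). The 250 bases before the start of the neighbours Ccl8 and Ccl12 are shown because both hold the letters TATAAA, in capitals, close to the start.
Ccl8, chr11:82114935-82115184, plus strand: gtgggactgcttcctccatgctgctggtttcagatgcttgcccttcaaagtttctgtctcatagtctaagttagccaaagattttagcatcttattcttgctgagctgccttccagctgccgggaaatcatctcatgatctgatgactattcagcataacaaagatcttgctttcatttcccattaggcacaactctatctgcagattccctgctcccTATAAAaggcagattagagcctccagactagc
Ccl12, chr11:82101595-82101844, plus strand: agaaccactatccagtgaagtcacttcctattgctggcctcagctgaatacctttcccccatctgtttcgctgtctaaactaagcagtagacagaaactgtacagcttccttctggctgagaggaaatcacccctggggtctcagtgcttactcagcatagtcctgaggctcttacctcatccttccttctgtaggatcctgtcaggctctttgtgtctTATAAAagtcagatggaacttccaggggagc
The TATAAA began 32 bases before the start of Ccl8 and 31 bases before that of Ccl12. Both strands were searched over the 250 bases before each start, and 12.4% of 32851 RefSeq promoters held these letters. Over 234 aligned bases the shown stretches of Ccl8 and Ccl12 were 62.0% identical. The letters TGANTCA (AP-1 site, in 6.75% of promoters) and GGGCGG (GC box, 32.7%) had no match, nor had the NF-kB consensus (3.90%) or the core of the interferon-stimulated response element, GAAA spaced from GAAA by 2 bases (2.98%). The gamma-activated site, TTCNNNGAA (7.02%), had no match either. All were searched in the same way in every available promoter of the 4 genes.

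Levels were read as FPKM, the fragments of a gene per kilobase of exon, scaled to the mapped fragments of the library. The estimated depth was 13650000 to 17000000 mapped reads per library. The hepatocyte genes Alb (18988 to 41547 FPKM), Apoa1 and Ttr were abundant in all libraries, as the label liver implies. Between libraries the profiles over all tested genes correlated at 0.980 within the control group, 0.983 within the 7KC group and 0.958 to 0.979 across groups (Pearson correlation across genes, which are not independent replicates). limma was fitted to all 12299 genes whose mean reached 0.5 FPKM, and log2 changes are 7KC minus control on the log2(FPKM + 0.5) scale, so that changes of low genes come out too small. The threshold was an adjusted p (Benjamini-Hochberg over all tested genes) under 0.05.

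All 6 genes were higher in both 7KC libraries than in both control libraries. For the 5 that passed the filter on low values, the ratio of the group means was 2.24 (Ccl7) to 5.25 (Ly6c2), and each of these 5 was above 0.5 FPKM in every library. Among all tested genes 25.1% were higher and 27.4% lower in the 7KC group without overlap of the libraries, and 6.5% were higher with group means at least 2-fold apart, as all 5 tested members were. An unadjusted limma p under 0.05 with a higher 7KC level was found for 5 of 5, against 12.0% of all tested genes (5.81% with a lower 7KC level). None of the 5 passed the adjusted threshold, which 0.48% of tested genes passed as higher and 0.0244% as lower. Ccl2, Ccl7 and Ccl12 were among the chemokine genes that the study picked for display from these libraries, so these counts are not independent of that choice. In whole liver, more cells that express a gene and more RNA of it per cell cannot be told apart.

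**Figure D1:**
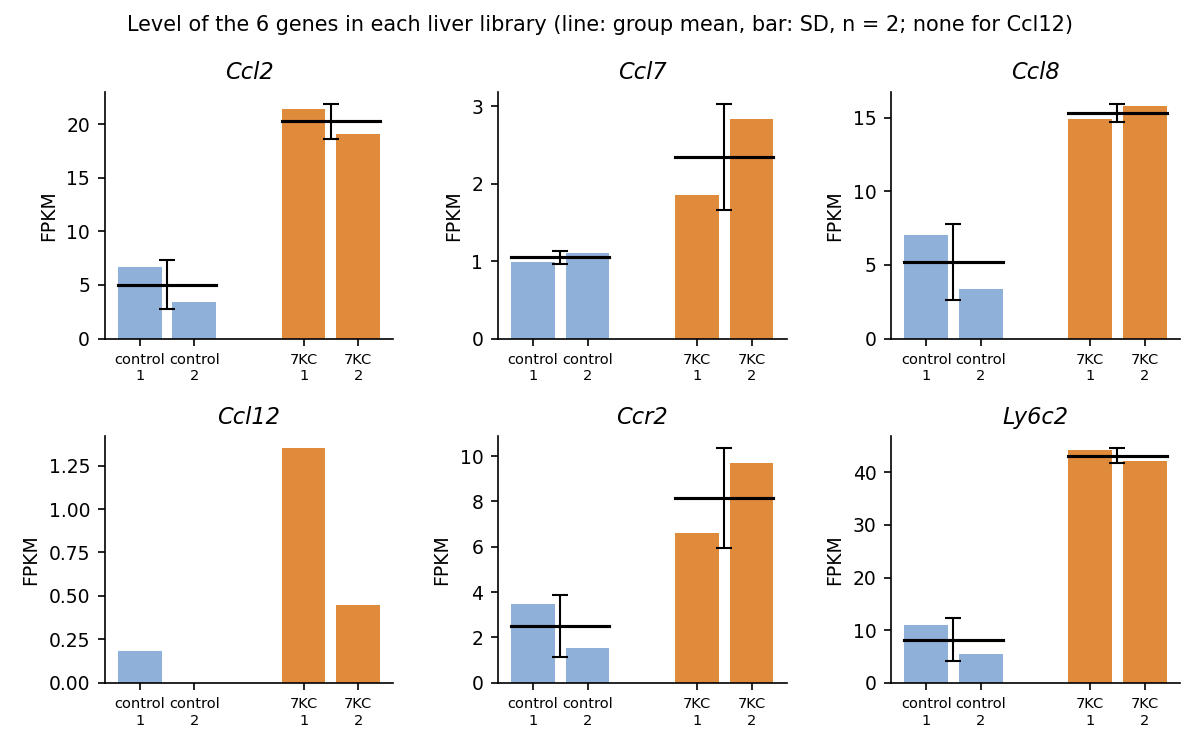
FPKM of Ccl2, Ccl7, Ccl8, Ccl12, Ccr2 and Ly6c2 (vertical axes, 1 panel per gene with its own scale from 0) in the control and 7KC libraries (horizontal axes); lines are group means and error bars SD (n = 2), left out for Ccl12, which was listed at 0 in control replicate 2. In each panel both 7KC bars stand above both control bars, and control replicate 1 stands above control replicate 2 in every panel but that of Ccl7.

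Ccl2, the main ligand of CCR2, was at 6.66 and 3.40 FPKM in control replicates 1 and 2 and at 21.4 and 19.1 FPKM in 7KC replicates 1 and 2. The 7KC libraries lay close together, and the lower of them was 2.87 times the higher control library. The mean was 5.03 ± 2.30 FPKM (SD, n = 2) in the control group and 20.2 ± 1.66 FPKM (SD, n = 2) in the 7KC group, a 4.03-fold difference. The log2 change was 1.97 (SE 0.29, 95% confidence interval 1.23 to 2.72, limma adjusted p 0.0606). Ranked from the largest rise down, Ccl2 stood 39th of the 12299 tested genes. Without control replicate 1, the control library with more Ccl2, the log2 change was 2.41, and without 7KC replicate 2 it was 2.05. Each of these fits leaves 1 library in a group, so the spread within that group is not measured.

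Ccl7, a second CCR2 ligand, was much lower. It was at 0.991 and 1.11 FPKM on the NASH diet alone and at 1.86 and 2.83 FPKM with 7KC added. At an estimated 10, 9, 15 and 23 reads these values rest on few fragments. Its control libraries were the closest of the 6 genes, and the 7KC libraries differed more from each other. The group means differed 2.24-fold (1.05 ± 0.0815 and 2.34 ± 0.686 FPKM, SD, n = 2 each), with a log2 change of 0.86 (SE 0.22, 95% confidence interval 0.31 to 1.41, limma adjusted p 0.142).

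Ccl8, the ligand known for CCR8 in mice, was at 7.03 and 3.39 FPKM on the NASH diet alone and at 14.9 and 15.8 FPKM with 7KC added. The control libraries differed 2.07-fold from each other, and the lower 7KC library was 2.12 times the higher control library. The means were 5.21 ± 2.57 and 15.3 ± 0.610 FPKM (SD, n = 2 each), with a log2 change of 1.55 (SE 0.31, 95% confidence interval 0.75 to 2.34, limma adjusted p 0.0970). Without control replicate 1 the log2 change was 2.02, without control replicate 2 it was 1.07 and without 7KC replicate 2 it was 1.51. Such fits leave 1 library in a group and do not measure its spread. Ccr8 itself was at 0.0615 and 0.0763 FPKM on the NASH diet alone and at 0.538 and 0.687 FPKM with 7KC added, under the filter on low values and so not tested.

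Ccl12, a CCR2 ligand that mice have and humans lack, was at 0.180 FPKM in control replicate 1 and listed at 0 in control replicate 2. It was at 1.35 and 0.447 FPKM in the 7KC libraries. These levels correspond to about 1, 0, 6 and 2 reads. Its mean over the libraries, 0.495 FPKM, was just under the filter, so Ccl12 has no test in the comparison. Pooled by group, 8 reads against 1 gave a rate ratio of 8.99 with an exact 95% interval of 1.21 to 399, which covers counting error only. At this depth the size of the difference in Ccl12 could not be determined.

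The sum of the 4 ligands was 14.9 and 7.90 FPKM on the NASH diet alone and 39.5 and 38.1 FPKM with 7KC added. Ccl2 and Ccl8 made up most of it. The Ccl7 part was 6.67% and 14.0% on the NASH diet alone and 4.70% and 7.42% with 7KC added. The Ccl2 part was 44.8% and 43.1% on the NASH diet alone and 54.2% and 50.1% with 7KC added, without overlap. The Ccl8 part was 47.3% and 42.9% on the NASH diet alone and 37.7% and 41.3% with 7KC added, also without overlap but in the other direction. Such shares depend on each other, and with 2 libraries against 2 the smallest 2-sided exact permutation p is 0.333, so no test of the shares was made.

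Ccr2, the receptor gene, was at 3.47 and 1.53 FPKM on the NASH diet alone and at 6.61 and 9.71 FPKM with 7KC added. Both groups were spread more widely than for Ccl2, and the lower 7KC library was 1.91 times the higher control library. The means were 2.50 ± 1.37 and 8.16 ± 2.20 FPKM (SD, n = 2 each), a 3.27-fold difference. The log2 change was 1.59 (SE 0.36, 95% confidence interval 0.68 to 2.49, limma adjusted p 0.117). Without control replicate 1 it was 2.07, and without 7KC replicate 2 it was 1.32, fits that leave 1 library in a group and do not measure its spread.

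Ly6c2 was the most abundant of the 6 genes and had the largest difference. It was at 11.1 and 5.39 FPKM on the NASH diet alone and at 44.2 and 42.2 FPKM with 7KC added. The lower 7KC library was 3.81 times the higher control library, the widest gap of the 6. The means were 8.22 ± 4.01 and 43.2 ± 1.44 FPKM (SD, n = 2 each), a 5.25-fold difference, with a log2 change of 2.40 (SE 0.32, 95% confidence interval 1.60 to 3.21). Ly6c2 stood 18th of all tested genes when ranked from the largest rise down. Its limma adjusted p of 0.0523 lay just outside the threshold, and it moved across it with the processing: it was 0.0496 with a pseudocount of 1 FPKM, 0.00765 when control replicate 1 was left out, 0.0495 when control replicate 2 was, and 0.344 without 7KC replicate 2.

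The near copy Ly6c1, which is also made by endothelial cells, was at 1.49 and 0.905 FPKM on the NASH diet alone and at 2.68 and 3.67 FPKM with 7KC added. It was thus lower than Ly6c2 in every library, and the log2 change was 1.12 with SE 0.24 (limma adjusted p 0.107). Ly6g, the neutrophil gene on the other side of Ly6c2, has no row in the files. The nearest neighbours of the ligand genes were not all present: Ccl11, in the middle of the cluster, was listed at 0 in both control libraries and at 0.169 and 0.0837 FPKM in the 7KC libraries. Ccl1, 59.9 kb beyond Ccl8, was at 0.399 FPKM in control replicate 1 and listed at 0 in the other libraries. In the receptor cluster Ccr3 was at 0.0470 FPKM or less throughout. Within the ligand cluster, then, Ccl2 and Ccl8 at its ends were the highest in every library. Between them, Ccl7 was at 0.991 to 2.83 FPKM, Ccl12 at 1.35 FPKM or less and Ccl11 at 0.169 FPKM or less.

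The order of the genes by level per length was clearer in the 7KC group. In both 7KC libraries Ly6c2 was highest, followed by Ccl2, Ccl8, Ccr2, Ccl7 and Ccl12, and no neighbours in this order overlapped. In the control group Ly6c2, Ccl8 and Ccl2 overlapped, as did Ccr2 with both of these ligands, while Ccl7 and Ccl12 lay below them. Control replicate 1 was above control replicate 2 in 5 of the 6 genes, by 1.96-fold for Ccl2, 2.07-fold for Ccl8, 2.26-fold for Ccr2 and 2.05-fold for Ly6c2. The 7KC replicates had no such common order, with replicate 2 lower in 3 of the 6.

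The profiles over the 4 libraries were compared by the Euclidean distance of log2(FPKM + 0.5), centred on each gene's mean. Among the members Ccl8 and Ccr2 were closest (0.317) and Ccl7 and Ly6c2 farthest apart (1.77). Outside the set, the tested genes nearest to Ccr2 were BC064078 (0.0635), Slamf7 (0.0918), D17H6S56E-5 (0.163), Lyz2 (0.186) and Lilr4b (0.223). Lyz2, the lysozyme gene of monocytes, macrophages and neutrophils, was at 538 and 321 FPKM on the NASH diet alone and at 995 and 1583 FPKM with 7KC added. The genes nearest to Ccl2 were Ms4a4c (0.153), Arl5c (0.164), Gm21188 (0.168), Fpr2 (0.171), a formyl peptide receptor gene of phagocytes, and Slc16a3 (0.202), a lactate transporter gene. Fpr2 was at 6.80 and 3.65 FPKM on the NASH diet alone and at 24.8 and 22.6 FPKM with 7KC added, nearly the levels of Ccl2. With only 4 libraries such likeness is a description.

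The other CC chemokine ligands set the scale for the members. Of 16 listed genes 12 were tested, 6 were higher in the 7KC group without overlap, none was lower without overlap, and none passed the adjusted threshold. For this list and those below, the shares over all tested genes were 25.1% higher and 27.4% lower without overlap. Their median log2 change was 0.57, beside 1.59 for the 5 tested members and -0.03 for all tested genes. Ccl5, a chemokine that attracts T cells and monocytes, was far more abundant than any member, at 109 and 45.4 FPKM on the NASH diet alone and 411 and 312 FPKM with 7KC added. The log2 change of Ccl5 was 2.34 (SE 0.42, limma adjusted p 0.0774). Ccl24, an eosinophil ligand, was at 4.26 and 5.48 FPKM on the NASH diet alone and at 10.9 and 10.3 FPKM with 7KC added (log2 change 1.06, SE 0.15, limma adjusted p 0.0596). Ccl4, an attractant of monocytes and T cells, and Ccl19, a ligand of CCR7, had values of 0.97 and 0.86 (limma adjusted p 0.121 and 0.158, respectively).

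The remaining tested ligands gave smaller values with wide intervals. The log2 change was 0.81 for Ccl6, 0.58 for Ccl3, 0.55 for Ccl9, 0.51 for Ccl21a, 0.46 for Ccl22, 0.35 for Ccl20, 0.17 for Ccl27a and -0.12 for Ccl25. In each of these 8 genes the 95% confidence interval held 0. Ccl6 differed mainly in 1 library, with 62.4 FPKM in 7KC replicate 2 and 19.8 to 26.1 FPKM in the others.

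Among the other CC and atypical chemokine receptors, 9 of 15 genes were tested. Without overlap, 4 were higher and none lower in the 7KC group, none passed the adjusted threshold, and the median log2 change was 0.44. Ccrl2, an atypical receptor that binds chemerin, was at 3.73 and 2.64 against 8.46 and 9.05 FPKM (log2 change 1.34, SE 0.18, limma adjusted p 0.0523).

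The log2 change was 0.96 for Ccr1, a receptor of monocytes and neutrophils, 0.64 for the fractalkine receptor gene Cx3cr1 of non-classical monocytes and 0.44 for the lymph node homing receptor gene Ccr7. The intervals of all 3 held 0. Ccr1 was at 0.465 and 0.274 FPKM on the NASH diet alone and at 0.664 and 1.92 FPKM with 7KC added. It was under 0.5 FPKM in both control libraries, so it passed the filter on low values only through the 7KC libraries. The scavenging receptors, which bind chemokines without signaling through G proteins, gave 0.06 for Ackr4, -0.08 for Ackr3, -0.21 for Ackr1 and -0.35 for Ackr2. ACKR2 takes up CCL2 and other inflammatory CC ligands, and its gene was at 0.890 and 1.95 FPKM on the NASH diet alone and at 1.05 and 0.848 FPKM with 7KC added, which overlapped. Ccl4, Ccl5 and Ccr1 were also among the genes displayed from these libraries by the study.

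**Figure D2:**
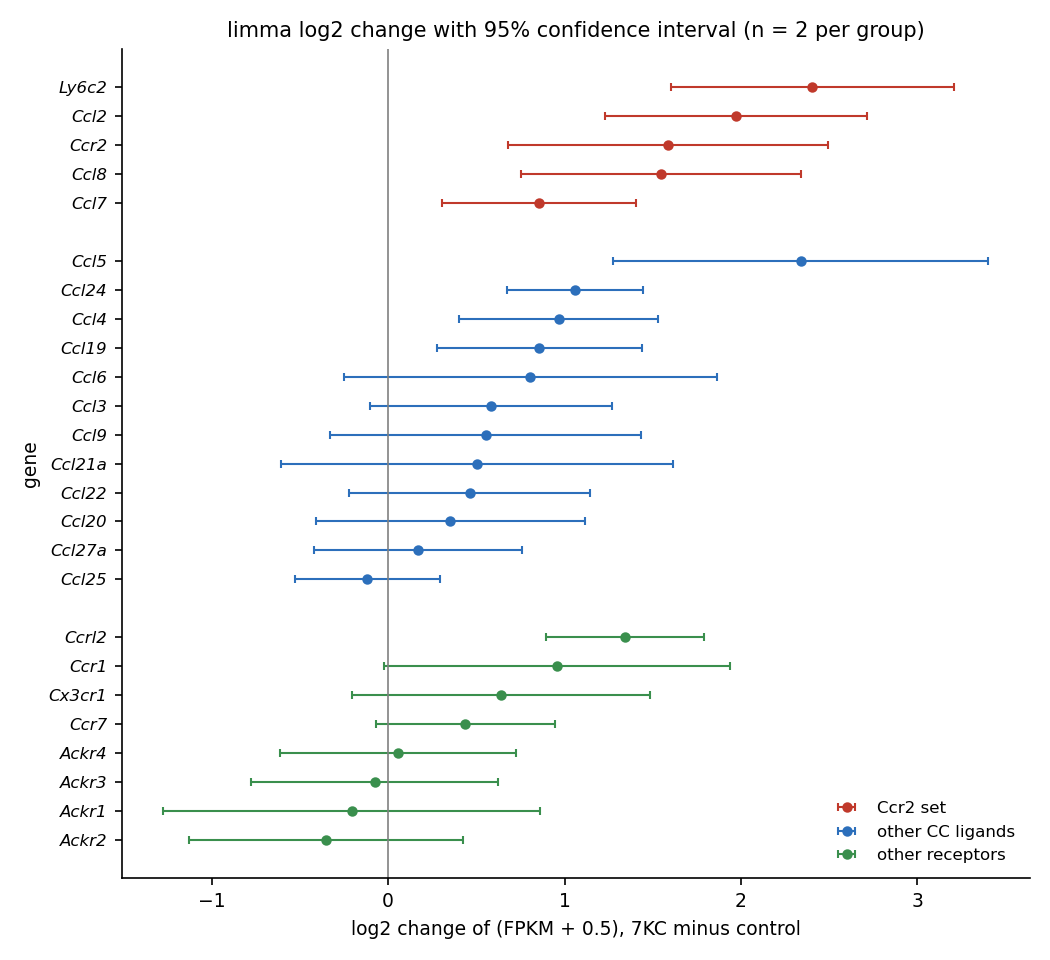
limma log2 change of (FPKM + 0.5), 7KC minus control (horizontal axis), with 95% confidence intervals (bars) for tested genes of the Ccr2 set (red), the other CC ligands (blue) and the other receptors (green), 2 libraries per group. The intervals of the 5 genes of the Ccr2 set lie above 0, as do those of Ccl5, Ccl24, Ccl4, Ccl19 and Ccrl2, and the 4 atypical receptors Ackr1 to Ackr4 lie around 0.

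Genes that carry the signal of chemokine receptors inside the cell were mostly higher too. Of 22 tested genes, 18 were higher and 1 was lower in the 7KC group without overlap, none passed the adjusted threshold, and the median log2 change was 0.54. The largest differences were in Pik3r5, a subunit of the phosphoinositide 3-kinase that G proteins switch on (log2 change 1.34, limma adjusted p 0.0848), and Rac2, a small GTPase of blood cells that moves the actin skeleton (1.26, limma adjusted p 0.0805). Gnai3, a widely expressed inhibitory G protein subunit, was the lowest at -0.28.

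Of the genes for cytokines, receptors and factors that induce the ligands, 17 were tested and 13 were higher without overlap, none lower, with a median log2 change of 0.51. Ifng, the gene of interferon gamma, was low, at 0.408 and 0.362 FPKM on the NASH diet alone and 2.99 and 1.38 FPKM with 7KC added (log2 change 1.53). Both control values were under 0.5 FPKM, so Ifng passed the filter on low values only through its 7KC libraries. It is counted among the 13, and no test is given for it. Ticam1, an adaptor of Toll-like receptors, was at -0.25.

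Genes for the growth of monocytes and their exit into tissue had a median log2 change of 1.09. Of 18 tested genes, 14 were higher and 1 was lower without overlap, and 2 rose past the adjusted threshold. Irf8, a transcription factor needed for monocytes and dendritic cells, rose from 10.6 and 8.16 FPKM to 26.8 and 26.2 FPKM (log2 change 1.46, SE 0.15, limma adjusted p 0.0369). Icam1, the adhesion molecule on which leukocytes hold to the vessel wall, rose from 14.2 and 12.3 FPKM to 36.1 and 31.7 FPKM (log2 change 1.32, SE 0.13, limma adjusted p 0.0340). Csf2rb, a shared receptor chain for GM-CSF, and Itgb2, the leukocyte integrin chain that binds ICAM1, had larger values, 1.61 and 1.59, with limma adjusted p of 0.0548 and 0.0617. The growth factor gene Il34 was at -0.20.

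Markers of cell types that use or answer CCR2 were read next, as counts and summed levels. Of 14 tested markers of classical monocytes, 12 were higher without overlap and none lower, with a median log2 change of 1.38, and none passed the adjusted threshold. Clec4e, a receptor for microbial lipids, was at 7.03 and 2.74 FPKM on the NASH diet alone and 17.5 and 18.7 FPKM with 7KC added (log2 change 1.91, limma adjusted p 0.0988). Ms4a4c had 2.53 and 1.19 against 7.77 and 7.39 FPKM (1.84, limma adjusted p 0.0621), and Mgst1 was the lowest at -0.27. Hp and Mgst1, which hepatocytes also make, held 83.0% to 96.0% of the summed FPKM of this list. Without them, a choice made after their values were seen, the sum was 641 and 388 FPKM on the NASH diet alone. It was 1250 and 1827 FPKM with 7KC added, a 2.99-fold difference of the means. Lyz2, which macrophages and neutrophils also make, held most of this sum in every library. It was at 538 and 321 FPKM on the NASH diet alone and at 995 and 1583 FPKM with 7KC added. The part of classical monocytes in the levels of Ccr2 and Ly6c2 was not tested.

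Of 11 tested markers of non-classical monocytes, 8 were higher without overlap and none lower, with a median log2 change of 0.73. The integrin gene Itgax and the sialophorin gene Spn had the largest values (1.62 and 1.19). Markers of resident Kupffer cells had a median of 0.02, with 5 of 11 higher and 2 lower without overlap. Clec4f, the defining Kupffer cell gene, was at 52.7 and 62.3 FPKM on the NASH diet alone and at 48.1 and 65.1 FPKM with 7KC added, so the groups overlapped (log2 change -0.03, 95% confidence interval -0.50 to 0.43). The extremes of this list were Il18bp (1.11) and Timd4 (0.92) on one side and Vsig4 (-0.41) on the other.

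Markers that macrophages of both origins carry gave 6 of 12 higher and none lower without overlap, with a median log2 change of 0.85. Gpnmb, a gene of lipid-laden macrophages, had the largest value (1.46) but differed mainly in 7KC replicate 2, at 34.3 FPKM against 3.67 to 9.37 FPKM in the others. Cd68 was at 36.4 and 26.9 against 56.5 and 96.9 FPKM (1.23). The summed level of the 12 genes was 628 to 729 FPKM in the control libraries and 1002 to 1451 FPKM in the 7KC libraries.

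Set against this sum, the members differed unequally. Ly6c2 was 1.52% and 0.857% of the summed macrophage genes on the NASH diet alone and 4.41% and 2.91% with 7KC added, a 3.08-fold difference of the means. The corresponding ratio was 2.37 for Ccl2, 1.85 for Ccr2, 1.71 for Ccl8 and 1.22 for Ccl7. Both 7KC libraries were above both control libraries in each of the 5 genes, narrowly for Ccl7 (0.136% and 0.176% against 0.185% and 0.195%). Relative to the summed Kupffer cell markers the ratios were larger, at 3.94 for Ly6c2, 3.04 for Ccl2 and 2.36 for Ccr2. That sum was itself higher with 7KC added, at 439 to 453 FPKM in the control libraries and 506 to 716 FPKM in the 7KC libraries. These ratios were not tested.

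**Figure D3:**
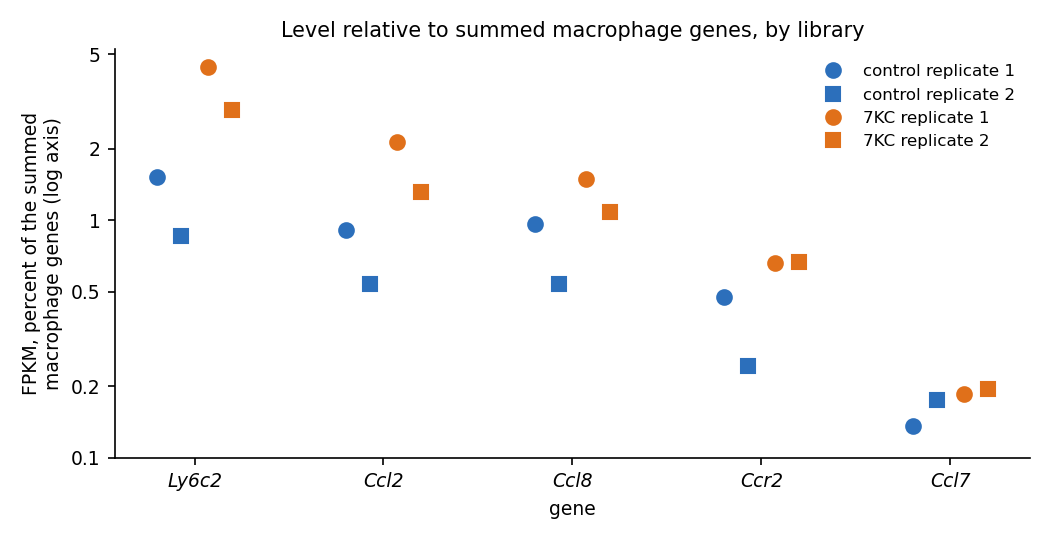
Level of Ly6c2, Ccl2, Ccl8, Ccr2 and Ccl7 (horizontal axis) in percent of the summed FPKM of 12 macrophage genes (vertical axis, log scale); each point is 1 library, blue for control and orange for 7KC, circles for replicate 1 and squares for replicate 2. The orange points stand above the blue ones in every gene, with the widest gap in Ly6c2 and almost none in Ccl7.

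Markers of other leukocytes were also mostly higher. All 13 tested markers of T and NK cells were higher in both 7KC libraries, with a median log2 change of 1.26, and the summed level of the list was 16.5 to 26.3 FPKM in the control libraries and 55.7 to 63.1 FPKM in the 7KC libraries. Cd3g (1.52, limma adjusted p 0.0648) and Cd4 (1.42, limma adjusted p 0.0512) led this list, and none of its genes passed the adjusted threshold. Of 5 tested neutrophil markers 2 were higher without overlap, Csf3r (log2 change 1.18) and S100a9 (0.51, named after its values were seen), and 1 was lower, Camp (-0.37). S100a8 had a log2 change of 0.66, but its libraries overlapped between the groups. The part of T cells and neutrophils in the chemokine levels was not tested.

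Cells of the liver itself gave smaller values. Sinusoidal endothelial markers had a median of 0.10, with 3 of 11 higher and none lower without overlap. Over all tested genes 25.1% were higher and 27.4% lower without overlap. The endothelial share of higher genes was close to the former. Ly6a, an interferon-responsive relative of Ly6c2 on the same chromosome, passed the adjusted threshold and rose from 28.2 and 25.4 FPKM to 125 and 93.6 FPKM (log2 change 2.00, SE 0.17, limma adjusted p 0.0275), while Ptprb was at -0.38. Hepatocyte markers had a median of -0.46, 9 of 12 were lower and none higher without overlap, and none passed the adjusted threshold. Apoa1 was the lowest (-0.68). The summed hepatocyte markers were 59585 to 71312 FPKM in the control libraries and 38437 to 50988 FPKM in the 7KC libraries. FPKM is relative to all fragments of a library, so the share taken by abundant hepatocyte genes moves with every other value, and its part in the members' levels was not tested.

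**Figure D4:**
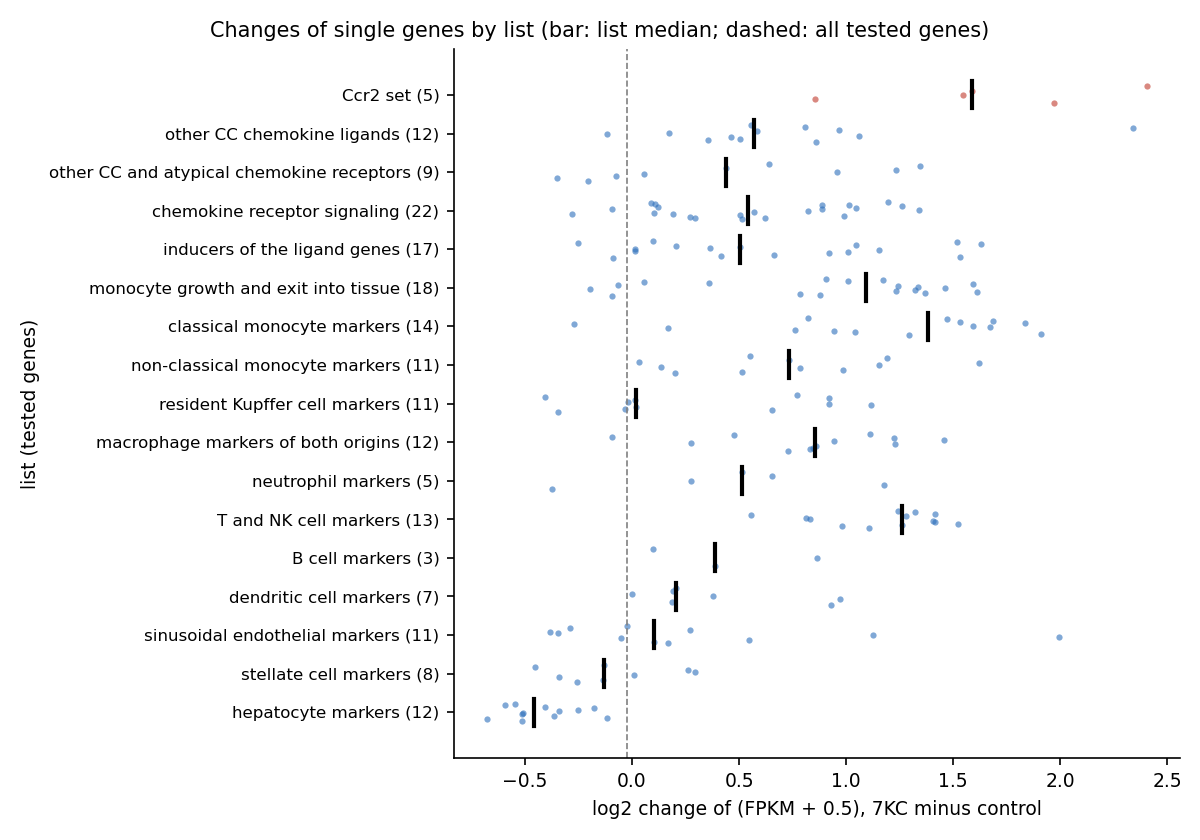
log2 change of (FPKM + 0.5), 7KC minus control (horizontal axis), of each tested gene (points) in 17 lists (vertical axis, number of tested genes in brackets); black bars are list medians and the dashed line is the median of all 12299 tested genes, -0.03. The Ccr2 set (red) has the highest median, 1.59, followed by classical monocyte markers at 1.38 and T and NK cell markers at 1.26, and hepatocyte markers have the lowest at -0.46.

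The sum of FPKM differed between libraries, from 557138 in 7KC replicate 2 to 685028 in control replicate 1. With all libraries brought to an equal sum, the median over all tested genes moved from -0.03 to 0.16, and the members moved with it. Ly6c2, Ccl2 and Ccl8 then passed the threshold with 2.60, 2.17 and 1.74 on the log2 scale (limma adjusted p 0.0221, 0.0271 and 0.0479). Over all 69 alternatives tried for the 6 genes, the level stayed higher in the 7KC group. None of them could have reversed the direction, because the libraries of the groups did not overlap and the rescalings did not close that gap. The adjusted p crossed the threshold in some of these alternatives.

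**Figure D5:**
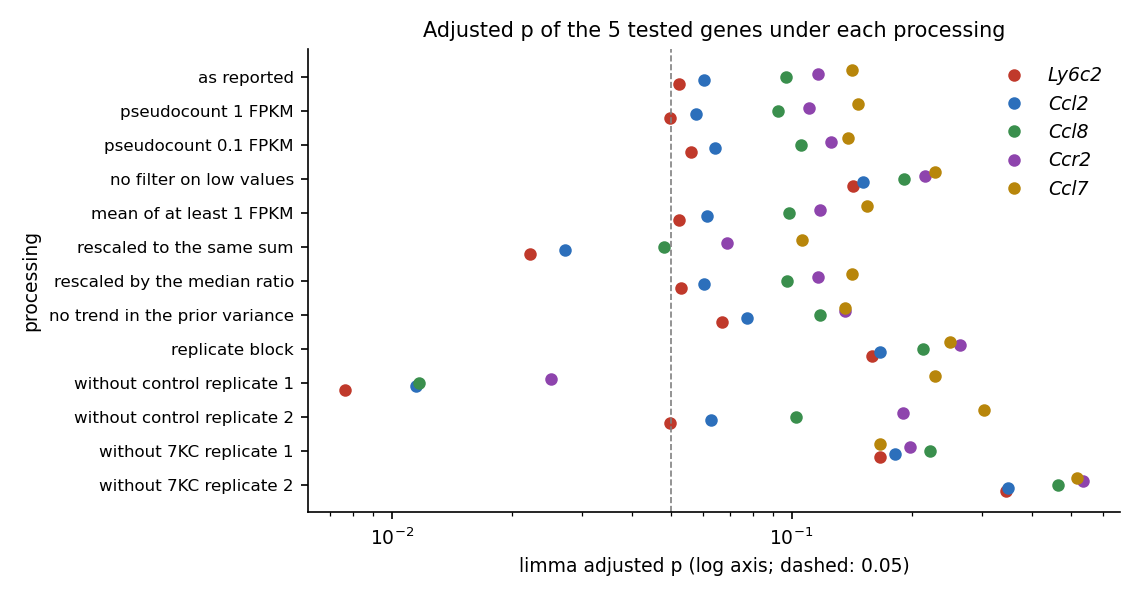
limma adjusted p (horizontal axis, log scale) of Ly6c2, Ccl2, Ccl8, Ccr2 and Ccl7 as reported and under 12 other choices of processing (vertical axis). The dashed line marks 0.05. Settings without 1 library leave a single library in a group and do not measure its spread. Points left of the line are Ly6c2 in 4 settings, Ccl2 and Ccl8 in 2 each and Ccr2 in 1, most of them when control replicate 1 was left out or the libraries were rescaled to the same sum.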

How the data were processed

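Liver RNA of 2 control and 2 7KC mouse samples was measured, with groups as labelled. The authors extracted RNA with a miRNeasy kit, made stranded libraries from messenger RNA, sequenced single-end reads of 75 bases and mapped them to mm10; TopHat2 2.1.1, Bowtie2 2.2.8, SAMtools 0.1.18 and Cuffdiff 2.2.1 are in the submitters' processing notes. The deposited unit is FPKM, 1 value for each symbol in a library. The gene annotation and the settings for strand and multi-mapped reads were not given in the sources used here. FPKM values are not counts, so no count model was used. Depth was estimated from the steps of low values with GENCODE release M21 transcript lengths, 200 bases taken off: 69.9% to 71.5% of 564 to 627 values of up to 10 reads were whole to within 0.1 read (chance gives 20%). Because estimated reads were not whole for nearly all genes, they served only to describe depth and the counting error of Ccl12.

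Genes averaging 0.5 FPKM or more were tested on log2(FPKM + 0.5) with limma 3.58.1 in R 4.3.3 (lmFit, eBayes with a trend, 2 residual and 3.27 prior degrees of freedom), 2-sided, with Benjamini-Hochberg adjustment over all 12299 genes. The fit was tested on simulated data. Fold differences are ratios of mean FPKM. The 6 genes and the 16 other lists (215 genes named, 213 listed) were chosen with earlier results of these data known. Named were the 6 genes, every tested gene of the other CC ligands and receptors, of each other list the 2 highest and the lowest log2 change plus genes past the threshold, the 5 genes nearest in profile to Ccr2 and to Ccl2, the chromosomal neighbours, and the tissue genes Alb, Apoa1 and Ttr. Clec4f, Lyz2 and Fpr2 were described, and Ccl6 and Gpnmb singled out for 1 library, after their values were seen. Alternatives were other pseudocounts, filters, scalings and variance priors, a replicate block, and leaving out each library. Results of some listed genes are not reported here.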

Additional observations from a re-analysis of the deposited data

How the results depend on the processing

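The 6 genes kept a higher level in the 7KC group under all 69 alternatives, but the adjusted p moved across the threshold. These alternatives could not have reversed the direction, because the libraries of the groups did not overlap. The rescalings could not either. Their factors were 0.997 to 0.999 by the median ratio. To the same sum they were 0.924 and 0.943 for the control and 1.02 and 1.14 for the 7KC libraries. Leaving out 1 library gave log2 changes of 1.92 to 2.89 for Ly6c2, 1.53 to 2.41 for Ccl2, 1.07 to 2.02 for Ccl8, 1.10 to 2.07 for Ccr2, 0.61 to 1.11 for Ccl7 and 0.70 to 1.67 for Ccl12; the remaining single library of a group was assumed to vary like the others. limma adjusted p values over all alternatives ran from 0.00765 to 0.344 for Ly6c2, 0.0115 to 0.347 for Ccl2, 0.0117 to 0.465 for Ccl8, 0.0250 to 0.536 for Ccr2 and 0.106 to 0.519 for Ccl7. Ly6c2 (2.60), Ccl2 (2.17) and Ccl8 (1.74) passed with libraries rescaled to the same sum, and Ly6c2 (2.33) with a pseudocount of 1 FPKM. Ccl12 stood at 2.41 with a pseudocount of 0.1 FPKM, and without a filter its limma adjusted p was 0.279. The genes higher and lower in the whole table, 59 and 3, became 111 and 4 with a pseudocount of 1 FPKM, 0 and 1 without a filter (limma; 1792 and 842 at an unadjusted p under 0.05), 398 and 7 rescaled to the same sum, 39 and 1 without a trend in the prior variance, and 2 to 389 and 1 to 52 without 1 library. Same-numbered replicates shared only a number (correlation of deviations -0.14). The replicate block gave 0 and 0 calls (limma; 1269 and 582 at an unadjusted p under 0.05) and changed no call of the 6 genes, and the crossed pairing, chosen after seeing the data, gave 551 and 37. Of 192 alternatives of list medians, 25 moved by more than the spread and 3 changed sign: B cells -0.26 (without control replicate 2), endothelium -0.14 (without 7KC replicate 2) and stellate cells 0.05 (rescaled to the same sum). Without 7KC replicate 2 the median was 0.31 for the other CC ligands, 0.26 for the other receptors, 0.37 for non-classical monocytes, 0.52 for macrophages, 0.33 for dendritic cells, -0.25 for stellate cells and -0.27 for hepatocytes. Without control replicate 2 it was 0.38 for the other CC ligands, 0.45 for non-classical monocytes, 0.13 for neutrophils, 0.04 for dendritic cells, 0.20 for endothelium and -0.21 for stellate cells. Without control replicate 1 it was 0.86 for the other CC ligands, 1.04 for B cells, 0.46 for dendritic cells and 7.8e-05 for endothelium, and without 7KC replicate 1 it was 0.42 for dendritic cells, 0.33 for endothelium and -0.04 for stellate cells. The Kupffer cell median stayed between 0.02 and 0.27 over all alternatives. The median of the other receptors was 0.06 without a filter and 0.94 with a mean of at least 1 FPKM, and that of hepatocytes was -0.25 rescaled to the same sum. The causes were not tested. Ccl12 rested on at most 6 estimated reads in a library.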

Other observations

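Markers of dendritic cells, B cells and stellate cells were read in the same way, beside 25.1% higher and 27.4% lower without overlap over all tested genes. Of 7 tested dendritic cell markers, 3 were higher and none lower without overlap in the 7KC group, with a median log2 change of 0.21. Clec9a, the receptor for dead cells on cross-presenting dendritic cells, was at 1.61 and 1.43 FPKM on the NASH diet alone and at 3.29 and 3.62 FPKM with 7KC added (log2 change 0.97, SE 0.15, limma adjusted p 0.0606), Batf3, a factor of the same cells, had a log2 change of 0.93, and Tcf4 had overlapping libraries. Only 3 of 7 B cell markers were tested, led by the receptor genes Cd79b (0.86) and Cd79a (0.39). Stellate cell markers had a median of -0.13, with 1 of 8 higher and 3 lower without overlap, from Ngfr (0.29) and Pdgfrb (0.26) to Reln (-0.46).

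CC chemokine and receptor genes under the filter on low values were Ccl1, Ccl11, Ccl17, Ccl28, Ccr3, Ccr4, Ccr6, Ccr8, Ccr9 and Ccr10. Besides Ccr8 and Ccl11, described above, Ccr9 was higher in both 7KC libraries (0.282 and 0.350 FPKM) than in the control libraries (0.0986 and 0.0699 FPKM).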
